A study of Mus musculus with 19 samples.

Results

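The effect of knee surgery alone on lumbar sensory ganglia was examined in 10 of the 19 libraries of the series, namely all those from mice that were given vehicle. Of these mice, 5 had undergone destabilization of the medial meniscus (DMM), in which a ligament of a knee cartilage is cut so that osteoarthritis develops, and 5 were naive. All 10 were male and homozygous for the MaFIA (macrophage Fas-Induced apoptosis) transgene, which is driven by the Csf1r promoter and kills macrophages and other myeloid cells when the dimerizing agent AP20187 is given. None of these 10 mice received AP20187. Vehicle was injected intraperitoneally on each of 5 days, and this took place 8 weeks after surgery in the DMM mice. The naive mice were age-matched and had no operation, so an effect of anaesthesia and incision cannot be told apart from that of the joint injury. The dorsal root ganglia L3 to L5 of the operated side were pooled, and a stranded poly(A) library was made from each pool. Each library carries 1 number and is read as 1 mouse, which no label states outright, so the p-values measure the spread between these samples. Mice are called by their numbers in the labels, DMM 32, 33, 34, 63 and 64 and naive 1 to 5.

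Dorsal root ganglia hold the cell bodies of the sensory neurons that serve the limbs and joints. Nociceptors among them carry ion channels for heat, acid, ATP and depolarization, and many release the peptides CGRP and substance P. After injury of their axons, sensory neurons switch on a regeneration programme headed by Atf3, and macrophages, which depend on Csf1r and its ligand Csf1, gather around them. In bulk RNA of whole ganglia, fewer cells of a type and less RNA per cell cannot be told apart.

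The DMM libraries held 62269569 to 67361411 counts and the naive libraries 61566267 to 74691396. Levels are given as CPM, the count of a gene scaled to the size of its library with TMM factors, and 22778 genes were tested with edgeR's quasi-likelihood test. The 10 pan-neuronal genes that mark a ganglion were all detected, at a mean level of 8.88 ± 0.611 log2 CPM in DMM and 9.10 ± 0.352 in naive (SD, n = 5 each). Before any test, DMM 64 stood apart. On the first principal component of log2 CPM of these 10 libraries, which held 35.8% of the variance, it lay at 152.8 and DMM 63 at 73.8, while the other 8 libraries lay between -68.2 and 29.6. DMM 64 also had the lowest pan-neuronal level (7.82 log2 CPM) and the highest level of blood-forming marrow markers (6.47 log2 CPM, against 2.45 to 5.20 in the other 9 libraries). These marrow markers comprised granulocyte, early B lineage, erythroid, megakaryocyte and proliferation genes. Their summed level ran from 2135 to 36310 CPM in DMM and from 4482 to 16370 CPM in naive, and no marker was at 0 in all 10 libraries.

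**Figure D1:**
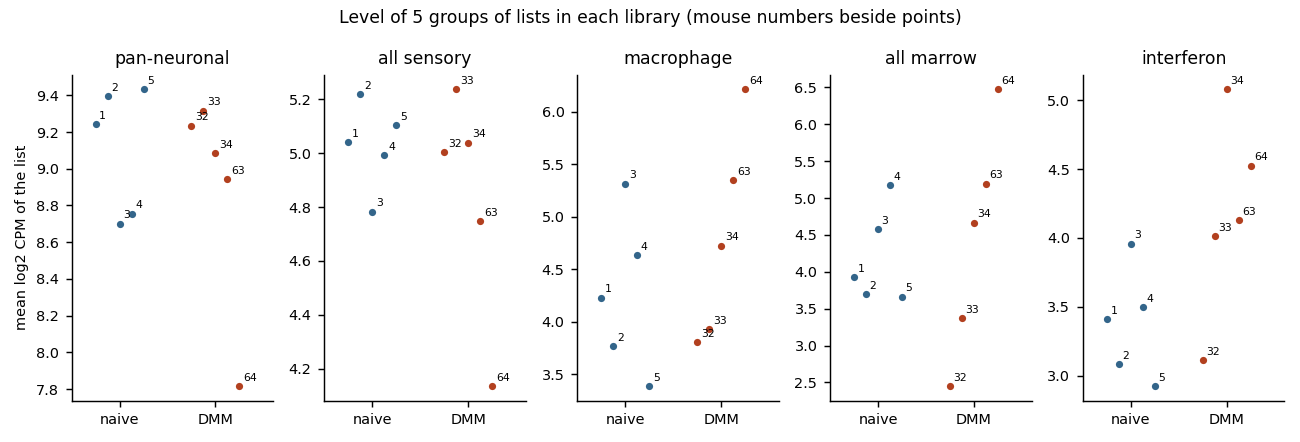
Mean log2 CPM of the genes of 5 groups of lists (vertical axis) in each of the 5 naive and 5 DMM vehicle libraries, 1 point per library with its mouse number. DMM 64 is the lowest library in the pan-neuronal and sensory panels and the highest in the macrophage and marrow panels, while in the interferon panel DMM 34 is the highest and DMM 32 lies within the naive range.

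No gene passed the threshold of adjusted p 0.05 between DMM and naive ganglia (0 of 22778, 0%), and the smallest adjusted p was 1. At an unadjusted p under 0.05 there were 377 genes (1.66%), made up of 292 higher in DMM (1.28%) and 85 lower in DMM (0.373%). DESeq2 also called 0 genes and gave 521 at an unadjusted p under 0.05. Limma voom with sample weights called 1, Calcoco2, an autophagy receptor (adjusted p 0.0489, against 0.0485 to 1 for the smallest adjusted p over all alternatives), whose mean was 0.2295 CPM in DMM and 0.032 CPM in naive. All 5 DMM libraries lay above all 5 naive libraries for 29 genes (0.127%) and below them for 25 (0.11%). The fitted difference was above 0 for 53.6% of genes, with a median of 0.03 on the log2 scale.

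A gene that misses the threshold may still differ, so the size of the difference that the data leave possible is given by a 95% interval for each gene, not adjusted over genes. The whole interval lay between a 2-fold decrease and a 2-fold increase for 11256 of 22778 genes (49.4%), and between 1.5-fold limits for 5898 (25.9%). Among the 16055 genes with a mean of at least 1 CPM, 11075 were bounded within 2-fold, which is 68.98%. Lists of sensory and immune genes were read against these shares. Of 162 sensory genes tested out of 164 listed, 57 were bounded within 2-fold (35.19%) and 11 within 1.5-fold. Of 170 immune genes, all tested, 34 were bounded within 2-fold (20%) and 7 within 1.5-fold. Both shares lay below that of all genes, so for most sensory and immune genes a 2-fold difference in at least 1 direction was not outside the interval. Without DMM 64 the counts were 69 sensory and 59 immune genes.

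**Figure D2:**
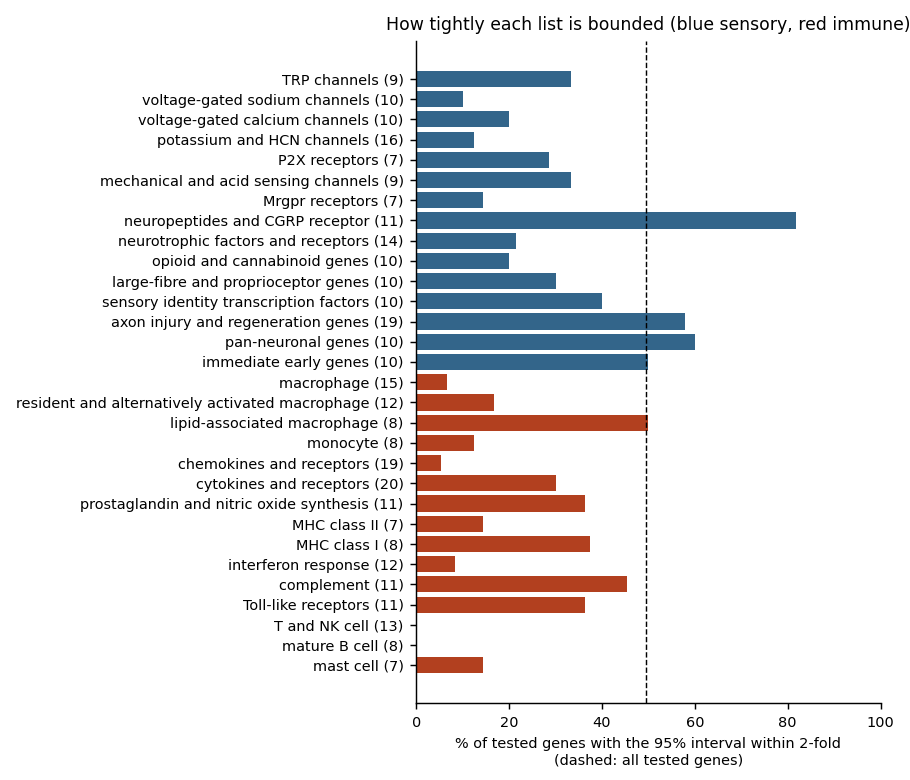
Share of the tested genes of each sensory list (blue) and immune list (red) whose 95% interval of the DMM minus naive difference lies wholly within 2-fold, with the number of tested genes in brackets and the share of all tested genes as a dashed line at 49.4%. Neuropeptide genes reach 81.82%, whereas no gene of the T and NK cell or mature B cell lists is bounded within 2-fold.

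Ion channels that start the nociceptor signal did not differ beyond the spread between mice, and the spread in DMM was wide. Trpv1, the heat and capsaicin channel (chromosome 11, 73125118 to 73152065), measured 122, 148, 103, 87.2 and 33.9 CPM in DMM 32, 33, 34, 63 and 64, the order used throughout, and 113, 131, 74.9, 101 and 128 CPM in naive 1 to 5. DMM 33 was the highest of the 10 libraries and DMM 64 the lowest, and the other 3 DMM libraries lay within the naive range. The log2 difference was -0.15 (SE 0.47), with an interval of 0.457 to 1.78 times the naive level. It ranged from -0.34 to 0.07 when any 1 library was left out. With DMM 32 to 34 alone it was 0.18, and with DMM 63 and 64 alone -0.88. Trpa1, the channel for chemical irritants, was at 125, 122, 77.2, 61.0 and 30.7 CPM in DMM. In naive mice it lay between 89.3 and 99.5 CPM, a range that no DMM library entered, since DMM 32 and 33 were above it and the other 3 below. The 9 TRP channels had a median log2 difference of -0.14, and 3 of them were bounded within 2-fold. The narrowest interval of the 9 was that of Trpm2, at 0.751 to 1.37 times naive.

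Voltage-gated sodium channels carry the action potential, and 10 of 10 were fitted lower in DMM, with a median log2 difference of -0.28 and none called. Scn10a, which encodes the nociceptor channel Nav1.8 (chromosome 9, 119437533 to 119548388), measured 655, 1175, 761, 324 and 133 CPM in DMM, against 762, 1191, 451, 904 and 904 CPM in naive. The 2 lowest libraries of the 10 were DMM 63 and 64, and the other 3 DMM libraries lay within the naive range. Its log2 difference was -0.47 (SE 0.61), with an interval of 0.299 to 1.75 times naive. The values for Scn9a (Nav1.7) were -0.27 and 0.357 to 1.93, and those for Scn11a (Nav1.9) -0.47 and 0.307 to 1.69. With DMM 32 to 34 alone the Scn10a difference was 0.04, and with DMM 63 and 64 alone it was -1.90. The calcium channel list was likewise fitted lower in 10 of 10 genes (median -0.37), and Cacna2d1, the target of gabapentin, had a log2 difference of -0.23 with an interval of 0.428 to 1.69 times naive. With DMM 32 to 34 alone the Cacna2d1 difference was 0.21, and with DMM 63 and 64 alone -1.35. Of 16 potassium and HCN channels, 15 were fitted lower, with a median of -0.37. The mean log2 CPM of the sodium, calcium and potassium lists differed from naive by 0.17, 0.02 and 0.12 in DMM 32 to 34. In DMM 63 and 64 it differed by -1.52, -1.26 and -1.48.

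Among receptors for ATP, touch and acid and the Mrgpr family, P2rx3, Piezo2, Asic3 and Mrgprd were each lower in DMM 63 and 64 than in the other 3 DMM libraries. P2rx3, the ATP receptor subunit of nociceptors, was at 273, 285, 205, 166 and 62.4 CPM in DMM, against 192 to 273 CPM in naive. DMM 63 and 64 were below every naive library, DMM 33 was above them all and DMM 32 was level with the highest, and the log2 difference was -0.17 (SE 0.44). Piezo2, the channel of touch and proprioception, was at 300, 582, 397, 119 and 72.4 CPM in DMM, against 208 to 514 CPM in naive, with a log2 difference of -0.44 (SE 0.55). Asic3, an acid sensor of muscle and joint afferents, had -0.24, with an interval of 0.423 to 1.69 times naive. Mrgprd, which marks non-peptidergic nociceptors of the skin, was at 147, 181, 131, 68.7 and 22.1 CPM in DMM, against 95.2 to 190 CPM in naive. With DMM 32 to 34 alone the log2 differences of P2rx3, Piezo2, Asic3 and Mrgprd were 0.19, 0.09, 0.04 and 0.11. With DMM 63 and 64 alone they were -0.98, -2.07, -0.82 and -1.66. The P2rx3 difference ranged from -0.34 to 0.06 when any 1 library was left out. The tightest interval among all sensory genes was that of P2rx4, an ATP receptor also made by macrophages and glia, whose log2 difference was 0.01 and whose level lay between 0.853 and 1.19 times naive.

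**Figure D3:**
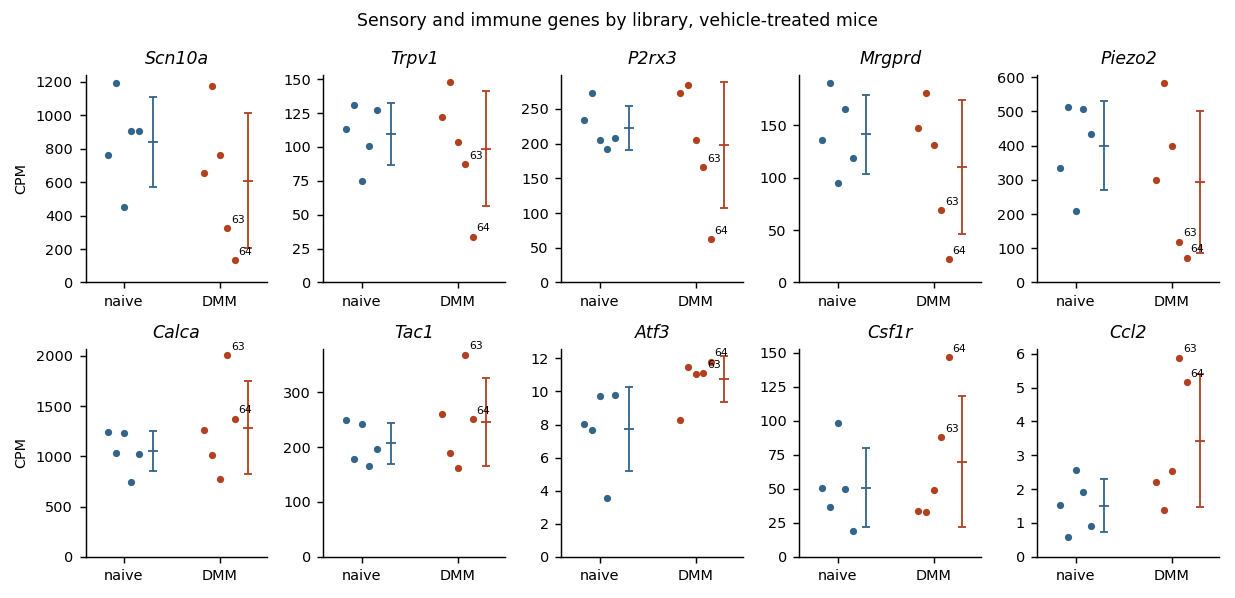
CPM of 8 sensory and 2 immune genes (vertical axes from 0) in the 5 naive (blue) and 5 DMM (red) vehicle libraries, 1 point per library, with bars for the mean and SD and labels on DMM 63 and 64. For Scn10a, P2rx3, Mrgprd and Piezo2 these 2 libraries are the lowest of the 10, for Ccl2 they are the highest, and the groups overlap in each panel.

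Sensory neuropeptides were the best bounded of the sensory lists, with 9 of 11 tested genes within 2-fold (81.82%). Calca, which encodes CGRP (chromosome 7, 114230713 to 114235592), measured 1266, 1010, 771, 2006 and 1373 CPM in DMM, against 1239, 1030, 1231, 745 and 1018 CPM in naive. DMM 63, 64 and 32 lay above every naive library, and the other 2 lay within the naive range. The log2 difference was 0.29 (SE 0.28), with an interval of 0.809 to 1.84 times naive. Tac1, the precursor of substance P, was at 260, 189, 162, 369 and 251 CPM in DMM, against 165 to 250 CPM in naive. For Tac1 the log2 difference was 0.25 (SE 0.28), and the interval of 0.788 to 1.80 times naive also left out a 2-fold change in either direction. With DMM 32 to 34 alone the 2 differences were -0.05 and -0.02, and with DMM 63 and 64 alone they were 0.68 and 0.59. With DMM 63 and 64 alone the median was 0.63 for the neuropeptide list, -1.75 for the sodium channels and -0.94 for the TRP channels, although Trpm2 had 0.22 and P2rx4 0.05. In the same fit the pan-neuronal genes had a median of -0.49 and the 6 marrow lists had medians of 1.31 to 2.16, and their part in these values was not tested. Whether the lists differ from each other was not tested.

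Neurotrophic factors and their receptors set the survival and sensitivity of sensory neurons. Ntf3, the growth factor of proprioceptors, was at 0.355, 0.269, 0.242, 0.302 and 0.236 CPM in DMM, against 0.724, 0.700, 0.773, 0.516 and 0.481 CPM in naive. Each DMM library lay below each naive library, which held for 0.11% of all genes and for 1 of the 162 sensory genes. The log2 difference was -1.18 (SE 0.42), with an interval of 0.239 to 0.807 times naive and an adjusted p of 1. It ranged from -1.30 to -1.10 when any 1 of the 10 libraries was left out. The libraries held few counts of this gene. Oprm1, the mu opioid receptor, was among the least bounded key genes, at 0.261 to 2.90 times naive.

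Large-fibre neurons serve touch and limb position. Pvalb, a calcium buffer of proprioceptors and of fast muscle fibres, was at 174, 40.2, 38.5, 112 and 87.6 CPM in DMM, against 52.7, 49.2, 87.1, 26.8 and 49.98 CPM in naive. DMM 32, 63 and 64 lay above every naive library and DMM 33 and 34 within the naive range, and the log2 difference was 0.77 (SE 0.35, adjusted p 1). Without DMM 32 it was 0.36. DMM 32 also held by far the most skeletal muscle RNA, with 1971 CPM summed over 8 muscle genes against 16.4 CPM in the lowest DMM library and 13.2 to 447 CPM in naive. The part of muscle RNA in the Pvalb difference was not tested. Nefh, the heavy neurofilament of large fibres, had a log2 difference of -0.25 with an interval of 0.371 to 1.91 times naive. The Nefh difference ranged from -0.42 to -0.02 when any 1 library was left out. It was 0.12 with DMM 32 to 34 alone and -1.11 with DMM 63 and 64 alone.

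Axon injury genes were better bounded than the channels, with 11 of 19 within 2-fold (57.89%) and 6 within 1.5-fold. Atf3, the transcription factor induced by nerve damage (chromosome 1, 190902493 to 190950236), measured 8.30, 11.5, 11.1, 11.1 and 11.8 CPM in DMM, against 8.06, 7.67, 9.73, 3.55 and 9.76 CPM in naive. Of the 5 DMM libraries, 4 lay above every naive library and DMM 32 lay within the naive range. For Atf3 the log2 difference was 0.47 (SE 0.24), the interval was 0.981 to 1.96 times naive, and the adjusted p was 1. Without naive 4, the lowest library, it was 0.29. Csf1, which injured neurons make to attract macrophages, had the narrowest interval of the key genes, at 0.818 to 1.37 times naive, around a log2 difference of 0.08 (SE 0.18). Jun and Klf6, regeneration factors, were bounded at 0.790 to 1.40 and 0.824 to 1.35 times naive, and Gap43, the growth cone protein, at 0.753 to 1.57. Sprr1a, another gene of the injury programme, was at 1.43, 3.67, 1.51, 0.892 and 0.486 CPM in DMM, against 0 to 1.63 CPM in naive, and its interval reached from 0.630 to 6.77 times naive, the farthest limit of the key genes. Nts, the neurotensin precursor, was at 17.0, 16.2, 10.3, 36.1 and 20.7 CPM in DMM, against 6.28 to 19.3 CPM in naive, a log2 difference of 0.72 (SE 0.34) that was 0.40 without DMM 63.

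Over the 20 key sensory genes, which stand for these roles, 5 were bounded within 2-fold, namely Calca, Tac1, Gfra3, Atf3 and Csf1. The limit farther from no change had a median of 2.35-fold and ran from 1.37-fold to 6.77-fold. Over all 162 sensory genes 51 were fitted higher and 111 lower, the median log2 difference was -0.17 against 0.03 for all genes, and 2 were higher (Pvalb and Nts, against 1.28% of all genes) and 1 lower (Ntf3, against 0.373%) at an unadjusted p under 0.05, shares near those of all genes. With DMM 32 to 34 alone the sensory median was 0.04, and with DMM 63 and 64 alone it was -0.77.

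**Figure D4:**
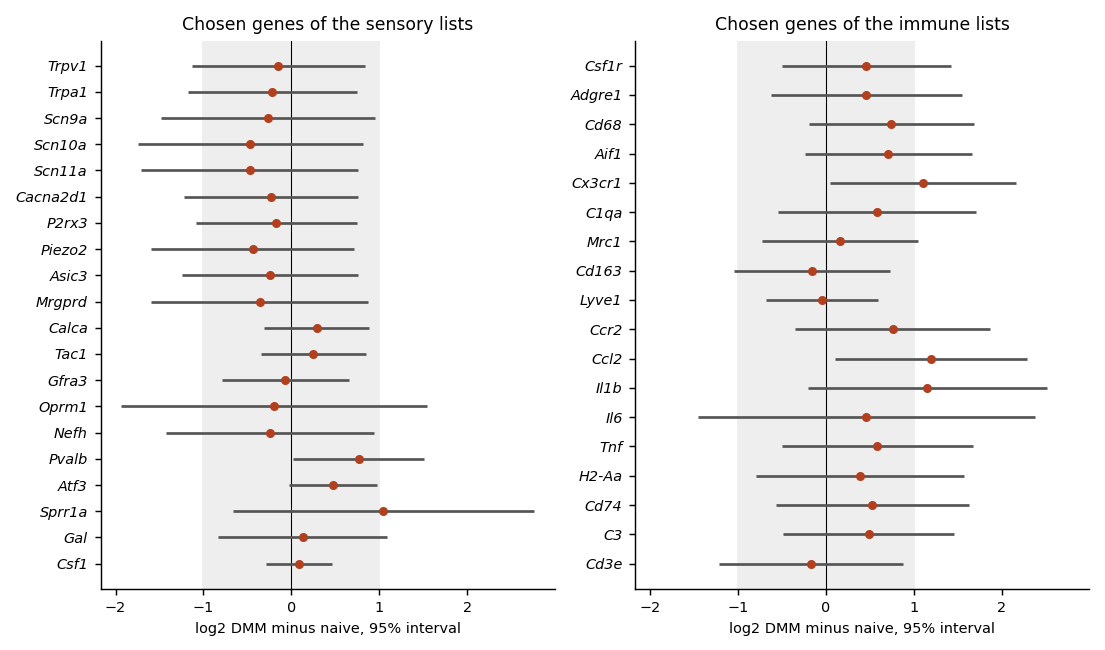
Log2 difference between DMM and naive vehicle ganglia (horizontal axis) for 20 key sensory and 18 key immune genes, with points for the fitted value, bars for the 95% interval and a grey band for differences within 2-fold. Calca, Tac1, Gfra3, Atf3, Csf1 and Lyve1 have intervals inside the band, and only Pvalb, Cx3cr1 and Ccl2 have intervals that leave out 0.

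Immune genes were mostly fitted higher in DMM, 145 of 170, with a median log2 difference of 0.46, and none passed the threshold. At an unadjusted p under 0.05, 17 of the 170 were higher, against 1.28% of all genes, and 1, Mertk, was lower, against 0.373%. Of the 17, 10 were among the 12 interferon response genes, 3 were chemokine or receptor genes, and 10 of the 15 immune lists held none. The marrow markers moved with them. Of 44 tested marrow genes, 44 were fitted higher, with a median of 0.73, 0 were bounded within 2-fold, and DMM 64 was the highest library in both. With DMM 32 to 34 alone the medians of the immune and marrow genes were -0.26 and -0.39, with DMM 63 and 64 alone they were 1.13 and 1.71, and without DMM 64 they were 0.02 and 0.01. When the marrow level of each library was added to the model as a covariate, 0 genes were called, the immune median was 0.16, and 96 of 170 immune genes were bounded within 2-fold.

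The macrophage markers named here were highest in DMM 64. Csf1r, the receptor that macrophages need to survive, was at 33.8, 32.7, 48.9, 88.1 and 147 CPM in DMM, against 50.9, 36.6, 98.2, 49.9 and 19.2 CPM in naive. DMM 64 was the only DMM library above the naive range, and naive 3 and 5 spanned 19.2 to 98.2 CPM between them. The log2 difference was 0.46 (SE 0.46), with an interval of 0.707 to 2.68 times naive, and it was -0.0016 without DMM 64 and 0.84 without naive 3. Adgre1, the F4/80 antigen, had 0.46 with 0.646 to 2.91, and Cd68, a lysosomal marker, had 0.74 with 0.874 to 3.20. Without DMM 64 these 2 differences were 0.10 and 0.11, and without naive 3 they were 1.11 and 1.04. Cx3cr1, the fractalkine receptor, was at 7.94, 7.57, 16.6, 25.8 and 33.6 CPM in DMM, against 5.79, 5.69, 17.0, 11 and 3.15 CPM in naive, a log2 difference of 1.10 (SE 0.51, adjusted p 1). Tyrobp, a signalling adaptor of myeloid cells, was at 7.25, 10.1, 21.3, 39.4 and 92.5 CPM in DMM, against 8.49 to 23.4 CPM in naive, a log2 difference of 1.23 (SE 0.53, adjusted p 1) that was -0.17 with DMM 32 to 34 alone and 0.43 without DMM 64. The Cx3cr1 difference was 0.33 with DMM 32 to 34 alone and 1.84 with DMM 63 and 64 alone. With the marrow covariate the values for Cx3cr1 and Tyrobp were 0.85 and 0.54.

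Of 12 genes of resident and alternatively activated macrophages, 2 were bounded within 2-fold (16.67%), against 1 of the 15 genes of the macrophage list and 49.4% of all genes. Lyve1 was at 5.94, 6.97, 7.40, 9.85 and 10.5 CPM in DMM, against 6.03 to 13.4 CPM in naive, and its interval of 0.623 to 1.51 times naive was the only one of the 18 key immune genes within 2-fold. The scavenger receptor genes Cd163 and Mrc1 had log2 differences of -0.16 and 0.16, with intervals of 0.482 to 1.65 and 0.604 to 2.07 times naive. Without naive 3 they were 0.26 and 0.58, and without naive 5 they were -0.37 and -0.04. The limit farther from no change reached 5.34-fold for Folr2, a folate receptor, and 4.00-fold for Timd4, a receptor for dying cells. Mertk, a gene of the macrophage list that also takes part in the uptake of dying cells, was at 12.9, 18.9, 14.4, 17.3 and 16.2 CPM in DMM, against 22.2, 19.1, 22.8, 19.4 and 15.6 CPM in naive. Of the 5 DMM libraries, 5 lay below 4 of the naive libraries, and naive 5 lay among them. Its log2 difference of -0.31 (SE 0.14, adjusted p 1) had an interval of 0.654 to 0.992 times naive and lay between -0.39 and -0.26 when any 1 library was left out. Ctsd, a lysosomal protease also abundant in neurons, had a tight interval of 0.787 to 1.20 times naive.

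Chemokines recruit monocytes, and 16 of 19 chemokine and receptor genes were fitted higher. Ccl2, the ligand of the monocyte receptor Ccr2 (chromosome 11, 81926397 to 81928279), measured 2.21, 1.39, 2.54, 5.88 and 5.15 CPM in DMM, against 1.54, 0.591, 2.56, 1.92 and 0.909 CPM in naive. DMM 63 and 64 were above every naive library and the other 3 DMM libraries within the naive range. The log2 difference was 1.19 (SE 0.52, adjusted p 1), with an interval of 1.07 to 4.86 times naive. It was 0.44 with DMM 32 to 34 alone and 1.03 with the marrow covariate. Ccl7, a related ligand of Ccr2, had 1.44, and Ccl3 had 2.68 with an interval of 1.47 to 29.05 times naive at 0 to 0.227 CPM in naive. Ccr2 itself was at 14.4, 15.8, 49.1, 71.3 and 121 CPM in DMM, against 12.4 to 50.7 CPM in naive, a log2 difference of 0.76 with an interval of 0.783 to 3.64. Without DMM 64 the values for Ccl7, Ccl3 and Ccr2 were 0.78, 1.79 and 0.23. Cx3cl1, the ligand of Cx3cr1, was the only chemokine gene bounded within 2-fold, at 0.725 to 1.25 times naive.

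Of 20 cytokine and receptor genes, 6 were bounded within 2-fold (30%), against 20% of immune genes and 49.4% of all genes. Il1b, Tnf and Il6, cytokines that sensitize nociceptors, were low in abundance and loosely bounded. Il1b was at 0.864, 0.776, 3.47, 4.02 and 15.4 CPM in DMM, against 2.05 to 2.42 CPM in naive, so that no DMM library lay within the naive range, 2 being below it and 3 above. This was a log2 difference of 1.15 (SE 0.65), with an interval of 0.869 to 5.69 times naive, and it was 0.23 with the marrow covariate. It was 0.05 without DMM 64 and -0.37 with DMM 32 to 34 alone. Tnf had 0.58 with 0.704 to 3.19, and -0.06 without DMM 64. Il6 had 0.45 with 0.364 to 5.18, and from 0.13 without naive 2 to 1.37 without naive 4. Lif, a cytokine of injured nerve, was at 1.39, 0.791, 1.48, 0.786 and 2.31 CPM in DMM, against 0.362, 0.187, 0.800, 1.34 and 0.294 CPM in naive. Its log2 difference of 1.18 (SE 0.46, adjusted p 1) was 1.03 with DMM 32 to 34 alone, 1.44 with DMM 63 and 64 alone and 1.22 with the marrow covariate. The antigen presentation genes H2-Aa and Cd74 had log2 differences of 0.39 and 0.53, and complement C3 had 0.48. Without DMM 64 these were -0.02, 0.02 and -0.09, and with DMM 32 to 34 alone they were -0.36, -0.46 and -0.35. Cd3e, a T cell marker, was at 0.735 ± 0.432 CPM in DMM and 0.826 ± 0.309 in naive (SD, n = 5 each), with an interval of 0.430 to 1.84 times naive.

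Interferon-stimulated genes, which type I interferons switch on through their receptor, were fitted higher in 12 of 12 cases, with a median log2 difference of 1.00. At an unadjusted p under 0.05, 10 of them were higher, against 1.28% of all genes, none passed after adjustment, and in none did the groups fail to overlap. They were described at this length after their values had been seen. Isg15, a ubiquitin-like protein, was at 3.41, 5.49, 11.8, 15.1 and 21.6 CPM in DMM, against 5.46, 5.05, 7.37, 4.89 and 3.78 CPM in naive. DMM 34, 63 and 64 were above every naive library, DMM 33 was within the naive range and DMM 32 was the lowest of all 10. Its log2 difference was 1.11 (SE 0.41, adjusted p 1), with an interval of 1.18 to 3.94 times naive. It was 0.38 with DMM 32 to 34 alone, 1.82 with DMM 63 and 64 alone and 0.70 with the marrow covariate. Ifit1, which binds foreign RNA, was at 31.5, 58.0, 150, 30.8 and 24.1 CPM in DMM, against 15.4 to 40.7 CPM in naive, so that only DMM 33 and 34 were above the naive range. Its log2 difference was 1.17, but 0.46 without DMM 34 and 0.08 with DMM 63 and 64 alone. Oas1a, a sensor of double-stranded RNA, was at 2.82, 4.69, 10.3, 6.17 and 9.88 CPM in DMM, against 2.51 to 4.85 CPM in naive, a log2 difference of 0.90 (SE 0.30, adjusted p 1).

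The regulators of the pathway gave similar values. Irf7, which amplifies interferon production, was at 4.87, 11.5, 30.9, 22.3 and 33.7 CPM in DMM, against 7.95, 7.60, 14.8, 8.37 and 6.46 CPM in naive, a log2 difference of 1.19 (SE 0.39, adjusted p 1). Usp18, which restrains the receptor, was at 3.53, 7.89, 26.0, 6.08 and 8.88 CPM in DMM, against 2.60 to 6.11 CPM in naive, a log2 difference of 1.25 (SE 0.42, adjusted p 1) that was 0.58 without DMM 34. The mean level of the 12 genes was higher by 0.69 log2 in DMM 32 to 34 and by 0.95 in DMM 63 and 64. By library it was 3.11, 4.01, 5.08, 4.13 and 4.52 log2 CPM in DMM, against 2.92 to 3.96 in naive, so that DMM 32 lay within the naive range and DMM 34 was the highest. The mean marrow level differed by -0.71 in DMM 32 to 34 and by 1.63 in DMM 63 and 64, and its part in the interferon values was not tested beyond the covariate. With the marrow covariate the median of the 12 genes was 0.74. It was 0.63 without DMM 34 and 1.20 without DMM 32, and 12 of 12 genes were fitted higher under each of the 22 alternatives run. The alternatives share libraries and the 12 genes belong to 1 response, so neither the fits nor the genes are independent. With DMM 63 and 64 alone, 3 of the 12 were called higher, against 1.77% of all genes in that fit. None of the 12 had an adjusted p under 0.0485 in that quasi-likelihood fit. Without DMM 34, 5 were higher at an unadjusted p under 0.05, against 2.26% of all genes.

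**Figure D5:**
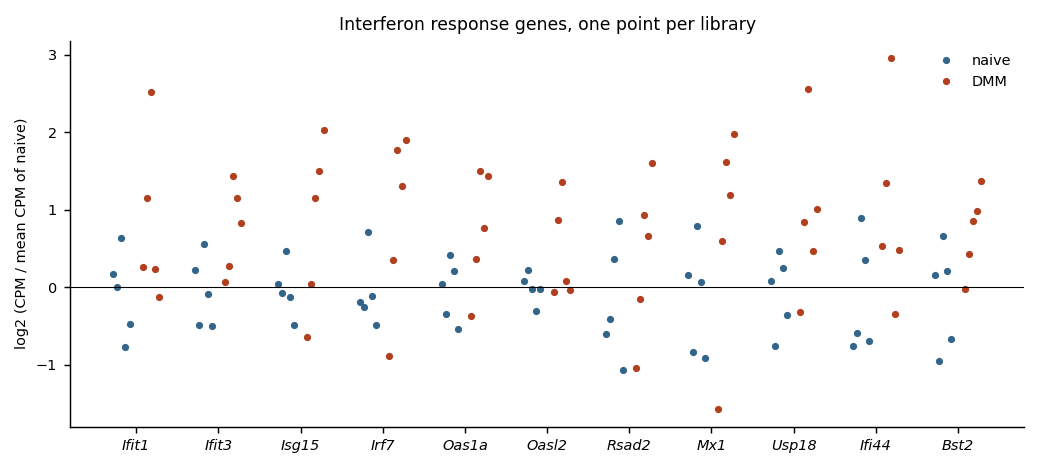
Log2 ratio of CPM in each library to the mean CPM of the 5 naive libraries (vertical axis) for 11 of the 12 interferon response genes, with blue points for naive and red for DMM vehicle libraries in order of mouse number. DMM 34 is the highest library for Ifit1, Usp18 and Ifi44, whereas DMM 64 is the highest for Isg15 and Irf7, and the groups overlap for each gene shown.

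The promoter stretches that hold interferon-response motifs are shown for 3 of the 12 genes. They come from RefSeq promoters (build GRCm38.p6, coordinates of that build, strand of the gene, 5′ to 3′), and capitals mark matches to the interferon-response motif, read as GAAA followed after any 2 bases by another GAAA, on either strand, where neighbouring matches may overlap.
Isg15, chr4:156200859-156200912, minus strand: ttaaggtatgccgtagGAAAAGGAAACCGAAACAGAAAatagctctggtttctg
Oas1a, chr5:120907526-120907561, minus strand: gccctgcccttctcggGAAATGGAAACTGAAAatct
Ifit1, chr19:34640769-34640829, plus strand: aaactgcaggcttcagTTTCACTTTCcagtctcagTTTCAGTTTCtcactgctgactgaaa
Isg15 held 3 overlapping matches, and Oas1a and Ifit1 held 2 each. Of the 12 genes, 9 had a promoter in the table, and in 6 of these the 250 bases before the start held at least 1 match, as did 2.98% of 32851 promoters of the same length. A match describes the letters and is not a measured binding site. The list was drawn up as interferon response genes, so the share with a match describes the list and not an effect of surgery.

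Among 71 genes of glia and other cells, 31 were bounded within 2-fold (43.66%), against 49.4% of all genes. The lowest shares were 0 of 8 skeletal muscle genes, 0 of 5 adipocyte genes and 1 of 6 bone and cartilage genes. Next came 2 of 6 spinal cord glia genes and 5 of 15 fibroblast and matrix genes. Of 8 satellite glia genes, 7 were bounded within 2-fold, as were 7 of 8 genes of myelinating Schwann cells. Fabp7, a fatty acid binding protein of satellite glia, was at 276, 149, 177, 400 and 332 CPM in DMM, against 162, 109, 250, 113 and 133 CPM in naive, a log2 difference of 0.80 (SE 0.34, adjusted p 1). DMM 32, 63 and 64 lay above every naive library. Mmp13, a collagenase, was at 32.3 CPM in DMM 64 and between 0.696 and 1.59 CPM in the other DMM libraries, against 0.321 to 3.20 CPM in naive. Its log2 difference was 2.40 (SE 0.90, adjusted p 1) and -0.30 without DMM 64. Acan, the cartilage proteoglycan, was at 17.6 CPM in naive 3 and 6.09 CPM in naive 1, and between 0.500 and 2.28 CPM in the other 8 libraries, with a log2 difference of -1.93 (SE 0.78, adjusted p 1) that was -0.77 without naive 3.

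Genes with a mean of at least 1 CPM in DMM or naive were ranked by unadjusted p. Symbols of predicted genes, RIKEN clones, pseudogenes and immunoglobulin or T cell receptor segments were left out. The first 10 were Zbtb16, Phf11d, Irf7, Adtrp, Oas1a, Ccno, Mgmt, Bmt2, Usp18 and Fam107a, each with an adjusted p of 1. Without these conditions, the smallest unadjusted p of the quasi-likelihood test over all tested genes was 0.00085. Zbtb16, a transcription factor induced by glucocorticoids, was at 7.80, 19.1, 8.10, 8.43 and 7.76 CPM in DMM, against 17.5, 24.7, 21.2, 43.7 and 8.01 CPM in naive, a log2 difference of -1.17 (SE 0.36). Of the DMM libraries, 4 were at 8.43 CPM or less, as was naive 5. Fkbp5, another glucocorticoid-induced gene, had a log2 difference of -0.52 (SE 0.23, adjusted p 1), or -0.26 without naive 4, and 5 of 6 genes of the glucocorticoid list were fitted lower, with a median of -0.15. Mgmt, a DNA repair enzyme, was at 2.24, 2.37, 2.56, 3.52 and 3.68 CPM in DMM, against 1.73, 2.02, 1.85, 1.19 and 1.55 CPM in naive. Bmt2, which regulates mTORC1, was at 15.9 to 21.7 CPM in DMM and 13.2 to 15.3 CPM in naive. Mgmt and Bmt2 were the 2 of these 10 genes whose groups did not overlap (0.127% of all genes for DMM above naive), with log2 differences of 0.78 (SE 0.27) and 0.38 (SE 0.13).

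The result depended on which DMM mice were set against the naive mice. DMM 32, 33 and 34 alone gave 0 called genes of 23283 and 329 at an unadjusted p under 0.05, with 122 higher in DMM and 207 lower in DMM. DMM 63 and 64 alone gave 541 of 24459 (2.21%), of which 433 were higher (1.77%) and 108 lower (0.442%). The smallest adjusted p of that quasi-likelihood fit was 0.0485, so all 541 lay just under the threshold of 0.05. Among those 541 were 12 of 44 marrow genes, all higher, 16 higher and 1 lower of 170 immune genes, and 4 higher and 2 lower of 162 sensory genes. All 10 neutrophil genes were among them. Retnlg, a neutrophil gene, was at 19.4, 28.0, 97.4, 130 and 454 CPM in DMM, against 45.9 to 83.8 CPM in naive, so that DMM 32 and 33 were below and DMM 34, 63 and 64 above every naive library. The labels give the numbers without saying what they stand for, and 2 mice were compared there with the spread of the other groups assumed.

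The same surgery was compared with no surgery in 5 DMM and 4 naive libraries from mice that were given AP20187. The 4 naive ones carry the numbers 1, 3, 4 and 5, which recur among the naive vehicle libraries. The labels do not say whether a shared number links them, and they were fitted as separate mice. There 160 genes were called (0.702%), and the interaction of surgery and AP20187 was called for 26 (0.114%). Differences with vehicle and with AP20187 were 0.29 and 0.48 for Calca, 0.25 and 0.21 for Tac1, -0.15 and -0.41 for Trpv1 and -0.47 and -1.11 for Scn10a. They were 0.46 and -0.01 for Csf1r, 1.19 and -0.17 for Ccl2, 1.19 and -0.17 for Irf7 and 1.11 and 0.24 for Isg15, and none of these 8 genes was called in either or in the interaction. The 12 interferon genes had a median of -0.11 with AP20187. Pvalb was the only key gene with a called interaction, at 0.77 with vehicle and -2.18 with AP20187 (adjusted p 0.0142; interaction -2.94, adjusted p 0.0348). The 8 skeletal muscle genes had medians of 1.49 with vehicle and -4.82 with AP20187, and its part in the Pvalb value was not tested. No label gives a batch for the AP20187 libraries.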

How the data were processed

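Bulk poly(A) RNA of L3 to L5 ganglia was measured in 19 libraries. Counts deposited by the authors are whole numbers with no normalization, and they also deposited FPKM for 36682 genes, of which the counts were used for the main results and the FPKM for an alternative. Per the submitters' processing notes, cutadapt, HISAT2 and StringTie were used and the build GRCm39 is named; their settings and roles are not given in the sources used here. Gene positions are those of the deposited files. Among the 10 vehicle libraries the value 4 occurred 9849 times, 3 occurred 4363 times and 5 occurred 3124 times, so a count need not be 1 read and low values are less precise than they look.

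In R 4.3.3, edgeR 4.0.16 (TMM, filterByExpr with a minimum count of 10) was fitted to all 19 libraries with 4 group means, which leaves 15 residual degrees of freedom. Each p is from the two-sided quasi-likelihood F test, adjusted by Benjamini-Hochberg over 22778 genes. Intervals are 95% Wald intervals from this fit. The mean log2 CPM of a list used a prior count of 2. DESeq2 1.42.0 and limma 3.58.1 were alternatives. A group was taken as at the floor at 3 counts per library, 0.0452 CPM in DMM and 0.0445 in naive, a limit that covers counting error alone, because the reads carried no stated molecular identifiers. No label gives a litter, cage or batch.

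The 48 lists (476 genes, of which 472 were tested) and the comparison were chosen with earlier results of these data known. Named were the genes past the threshold, the 10 with the smallest unadjusted p where fewer than 5 passed, key genes of each role (20 sensory and 18 immune genes reported), and the members with the widest and narrowest interval in each list. The 10 by unadjusted p had to reach a mean of 1 CPM in DMM or naive. Predicted genes, clones, pseudogenes and antigen receptor segments were left out of these 10 by symbol. List members with an unadjusted p under 0.05 and the interferon genes were added after their values had been seen, and for length some of the named genes are not printed. Some genes counted in the lists are not reported here by name. Value columns left without a sample numbered 0.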

Additional observations from a re-analysis of the deposited data

Results flagged for a closer look

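In groups of 5 libraries, 1 library stood apart from the other 4 (gap over range above 0.71 on the log2 scale) in 16 of 318 groups of named genes, where chance gives about 1 in 20 groups, or 15.9. That rate is for normally spread values of genes chosen blindly. Some named genes were chosen by their values, and genes move together, so 16 and 15.9 cannot be set against each other. DMM 64 gave 4 of the 16. It was low in 2 neuronal genes, at 17.7 CPM for Gfra3 and 26.1 CPM for Prdm12, a nociceptor transcription factor, where the other DMM libraries were at 39.3 or more and 81.5 or more. It was high in Mmp13 (32.3 CPM) and Il6 (0.662 CPM). DMM 32 was low in Atf3 (8.30 CPM) and in the macrophage receptor Timd4 (0.0617 CPM), and was the only DMM library with counts of Nos2 (0.308 CPM), as naive 4 was among naive (0.194 CPM). DMM 33 was high in Zbtb16 (19.1 CPM) and low in the aggrecanase Adamts5 (41.7 CPM), and DMM 63 was high in the neuropeptide Vip (1.38 CPM). Naive 4 was high in Ccno (1.29 CPM) and low in Atf3 (3.55 CPM). Naive 2 was low in Trpa1 (89.3 CPM) and Ms4a3 (8.34 CPM) and held 0 counts of Artn.

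The effect of surgery on Pvalb differed between AP20187 and vehicle mice by -2.94 log2 in the interaction test (adjusted p 0.0348).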

How the results depend on the processing

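The count of 0 called genes was also found with DESeq2 size factors, library size alone, no filter, a CPM filter, the 10 vehicle libraries alone, robust dispersions, DESeq2, log2(FPKM + 1), DMM 32 to 34 alone and the marrow covariate, and in each fit that left out 1 of the 10 libraries (0 to 0). It was 1 with limma voom and 541 with DMM 63 and 64 alone, the latter all at an adjusted p of 0.0485 or above in the quasi-likelihood test. Sensory genes bounded within 2-fold numbered 57, and 129 with limma voom, 97 on log2(FPKM + 1) and 12 with DMM 63 and 64 alone, with 41 to 69 when 1 library was left out. Immune genes so bounded numbered 34, and 80, 89 and 13 in the same settings and 96 with the marrow covariate, with 24 to 59 when 1 library was left out, the highest being without DMM 64. On log2(FPKM + 1), low genes are drawn towards no difference by the offset, and 90.5% of all genes were so bounded there. Interaction calls numbered 26, and 13 with no filter, 224 with DESeq2, 53 with limma voom and 56 on log2(FPKM + 1). The cause of these moves was otherwise not tested. Of 159 named genes, the fitted sign turned in at least 1 alternative for 104, and for 62 when 1 library was left out. Over these genes 3374 values moved by less than the spread between mice, 88 moved by more, and 15 passed the threshold, in each case with DMM 63 and 64 alone. No paired analysis was possible because the DMM and naive vehicle mice share no numbers. Ntf3, Il6 and Ccl3 were under 1 CPM in most libraries, and their few counts limit what can be said of them.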

Other observations

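Blood vessels, rhythm genes and activity genes were not described above. Of 8 endothelial genes, 7 were fitted lower in DMM and 6 were bounded within 2-fold, and none was called. The direction rested on naive 4, which had 577 CPM summed over these genes against 103 to 195 CPM in the other naive libraries. Without it 8 of 8 were fitted higher (median 0.36), as they were with limma voom (0.33). Vwf, the clotting factor of endothelium, lay between 37.3 and 56.4 CPM in DMM and between 24.4 and 220 CPM in naive, and its log2 difference of -0.67 was 0.37 without naive 4. Clock genes were bounded within 2-fold in 8 of 10 cases. The exceptions were Arntl, listed as Bmal1 and the core activator (log2 difference 0.60, interval 1.03 to 2.23 times naive), and Dbp, an output gene (0.44, interval 0.731 to 2.51). Without DMM 64 the differences were 0.33 for Arntl and -0.02 for Dbp, and with DMM 32 to 34 alone Dbp had -0.51. Per2, a repressor of the clock, had -0.40. Immediate early genes, which mark recent neuronal activity, were bounded in 5 of 10 cases. Fos had a log2 difference of 0.17 with an interval of 0.585 to 2.16 times naive, and Junb had 0.15 with 0.748 to 1.65, or -0.12 without DMM 64. All 9 mitochondrially encoded genes were bounded within 2-fold, with a median of -0.09.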
